A study of Homo sapiens with 12 samples.

Results

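The 34 genes described here act in the making of ribosomes. They are MYC, taken in as a transcriptional regulator of the programme, and 33 genes for RNA polymerase I, small nucleolar ribonucleoproteins, nucleolar chaperones and assembly factors of both ribosomal subunits. They were chosen as a list of gene symbols by function, with earlier results of these data known, and matched to the Entrez gene identifiers of the data. The list is 34 of 21508 genes above 0 in any library of the series, of which 16899 were above 0 in all 12 libraries. All 34 were found, and all 34 passed the filter on low counts, so none is missing from the tests. The cells are EndoC-βH1, a human line with features of pancreatic beta cells, and the libraries were made from their polyadenylated RNA. Every culture received siRNA with a lipid reagent: one set received a control sequence (negative siRNA), the other TUNAR siRNAs, which target the long noncoding RNA TUNAR. After transfection the cells were kept for 24 hours in 5 µM 1-AKP, which the submitters describe as an inhibitor of the kinase GSK3, or in DMSO, its vehicle. Each siRNA was thus combined with each of DMSO and 1-AKP, which makes 4 groups of 3 libraries numbered 1 to 3. All 12 libraries come from 1 cell line and all cultures were transfected, so p-values measure the spread between cultures of that line, which may be technical.

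Ribosomes are assembled in the nucleolus. RNA polymerase I transcribes a long precursor RNA, small nucleolar RNAs guide its chemical modification and folding, and a large set of helper proteins cuts it and adds ribosomal proteins until both subunits can be exported. Many genes of these helpers are known targets of the MYC family of transcription factors, which bind the E-box motif with MAX as partner. Beta cells make and secrete large amounts of insulin protein, so translation capacity is a basic property of the tissue. RNA levels alone were measured: neither ribosomal RNA synthesis nor MYC protein was assayed.

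The libraries held between 15653786 and 15986834 expected counts. TUNAR itself was measured at 14.4, 19.9 and 17.7 CPM (counts scaled to the library total adjusted by TMM factors, as for every member) in DMSO cultures that had negative siRNA, and at 3.83, 7.20 and 8.09 with TUNAR siRNAs and DMSO. In 1-AKP it was at 27.9, 31.0 and 30.8 CPM in the controls, against 6.95, 10.5 and 13.6 after TUNAR siRNAs, so every knockdown library lay below every control library of the same treatment. The markers of cell types are given in CPM by the library total alone. INS, the insulin gene, averaged 10707 CPM with negative siRNA and DMSO, TTR, an islet transcript, 1387 CPM, and the duct marker KRT19 53.4 CPM. The defining alpha-cell hormone gene GCG was at or below 0.442 CPM in every library, PPY, PRSS1 and CELA3A were not listed, and SPP1, AMY2A and VWF were at 0 in at least 10 libraries each. Other markers of these lists were present with negative siRNA and DMSO: the macrophage gene CD68 at 37.3 CPM, the islet cell marker IRX2 at 31.2 CPM and the acinar gene CPA1 at 28.5 CPM. The delta-cell hormone gene SST was at 12.9 CPM (4.57 to 29.4), COL1A1 at 4.98 CPM and PECAM1 at 3.59 CPM. In the group with 1-AKP and negative siRNA they were, in this order, at 43.5, 27.8, 24.3, 12.4, 4.32 and 2.90 CPM. Their part in the results was not tested. The summed proliferation markers (6 of 6 detected) ran from 1859 to 2336 CPM with negative siRNA and DMSO and from 1877 to 2290 with negative siRNA and 1-AKP, and none of the 6 was called for 1-AKP (1 rose in the average without replicate 1). The libraries numbered 1 stand apart from the others for these genes, and not for these alone, as the comparison of libraries in the processing section shows. The counts of called members are therefore given with and without them.

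Among the members, levels can be compared between genes only per length, in FPKM (fragments scaled by gene length and library total). With negative siRNA and DMSO, NPM1 (nucleophosmin, an abundant nucleolar chaperone) stood highest at 416 ± 26.8 FPKM (SD, n = 3), at the 99.4th percentile of genes tested. NCL (nucleolin, which binds the precursor RNA) followed at 217 ± 8.37, then NOP56, a core protein of box C/D snoRNPs, at 116 ± 11.7. FBL, the ribose methyltransferase of the same particles, was at 82.1 ± 6.09 and NHP2, a core protein of box H/ACA snoRNPs, at 62.7 ± 7.45. Each of these 5 was above the next in all 3 libraries, as NHP2 was above NOLC1. From NOLC1 at 43.3 FPKM down to RRP12 at 5.30, every neighbouring pair in the order overlapped between libraries, so the order in that stretch is not resolved. UTP15, at 3.48 ± 0.356 FPKM, lay below RRP12 in all 3 libraries, and MYC lay below UTP15 at 0.450 ± 0.139 FPKM, the 7.38th percentile. MYC therefore rests on few reads, between 8 and 30 expected counts per library. Its paralogue MYCN was far more abundant in these cells, at 22.7 FPKM with negative siRNA and DMSO, and MYCL was at 0.473 FPKM.

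**Figure D1:**
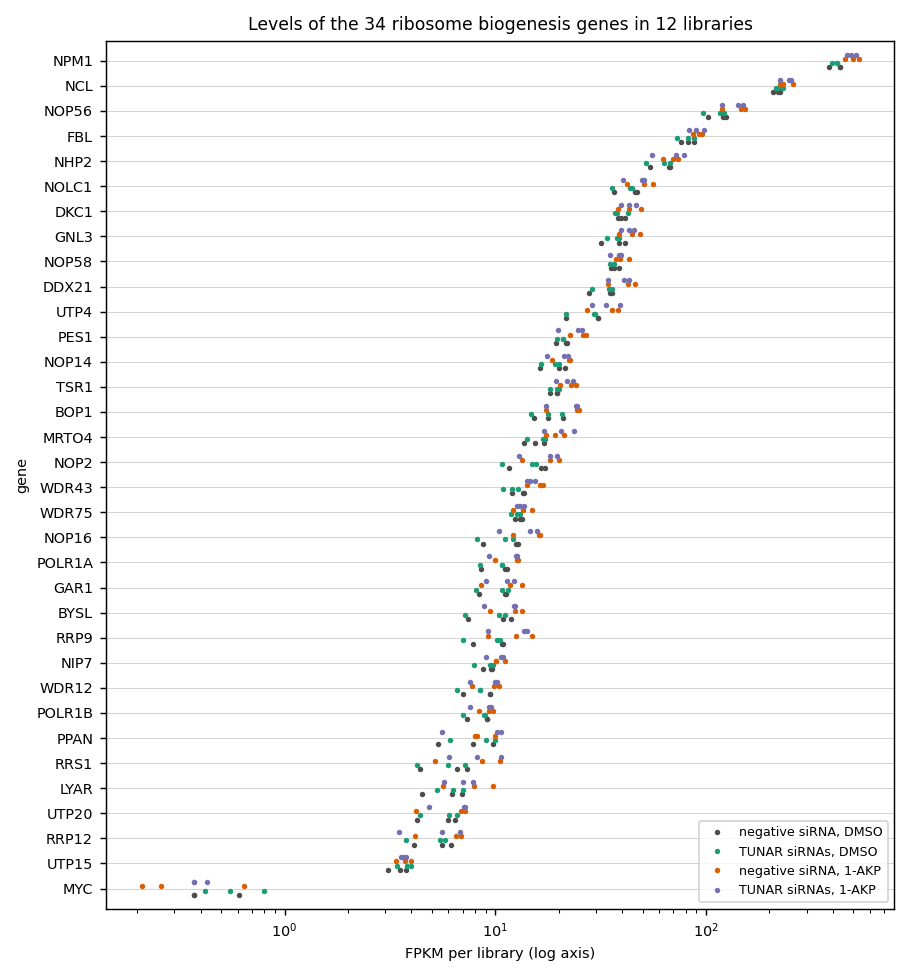
FPKM of each of the 34 genes (vertical axis) in the 12 libraries on a log axis, coloured by group. NPM1 at 416 FPKM and MYC at 0.450 FPKM mark the ends of the range, and most genes between NOLC1 and RRP12 overlap their neighbours.

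Within each group the members varied together with the replicate number. The library numbered 1 had the lowest CPM for 32 of 34 members with negative siRNA and DMSO, for 33 with TUNAR siRNAs and DMSO, and for 32 in either group with 1-AKP. Over all genes tested the lowest library was number 1 in 39.2% to 40.2% of genes. In all 4 groups at once, 30 of 34 members were lowest in replicate 1, against 17.1% of all genes. The median member in replicate 1 was lower than the mean of replicates 2 and 3 by a log2 difference of -0.34, -0.31, -0.27 and -0.32 in the 4 groups, where the median over all genes was between -0.00 and 0.00. The deficit was deepest for RRS1, a large subunit factor (-0.70 on average over the groups), RRP12, a small subunit export factor (-0.65), and PPAN, a large subunit factor (-0.61). It was shallowest for NOP58 (-0.09), NCL (-0.12) and WDR75 (-0.12). MYC went the other way and was highest in replicate 1 of every group, with 1.44 CPM against 0.871 and 0.876 in replicates 2 and 3 with negative siRNA and DMSO.

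Replicates 1 and 2 come from passage 74 and replicate 3 from passage 75, so the low libraries share their passage with replicate 2. The labels do not say what else a number marks, and whether the deficit comes from culture, RNA or library preparation was not tested. Replicate 3 differed little from replicate 2, with member medians between 0.02 and 0.09. As a result the members had a wider spread within groups than other genes, with a median coefficient of variation of 12.8% against 8.57% over all genes tested. NOP58 had the narrowest at 5.34% and MYC the widest at 33.4%.

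**Figure D2:**
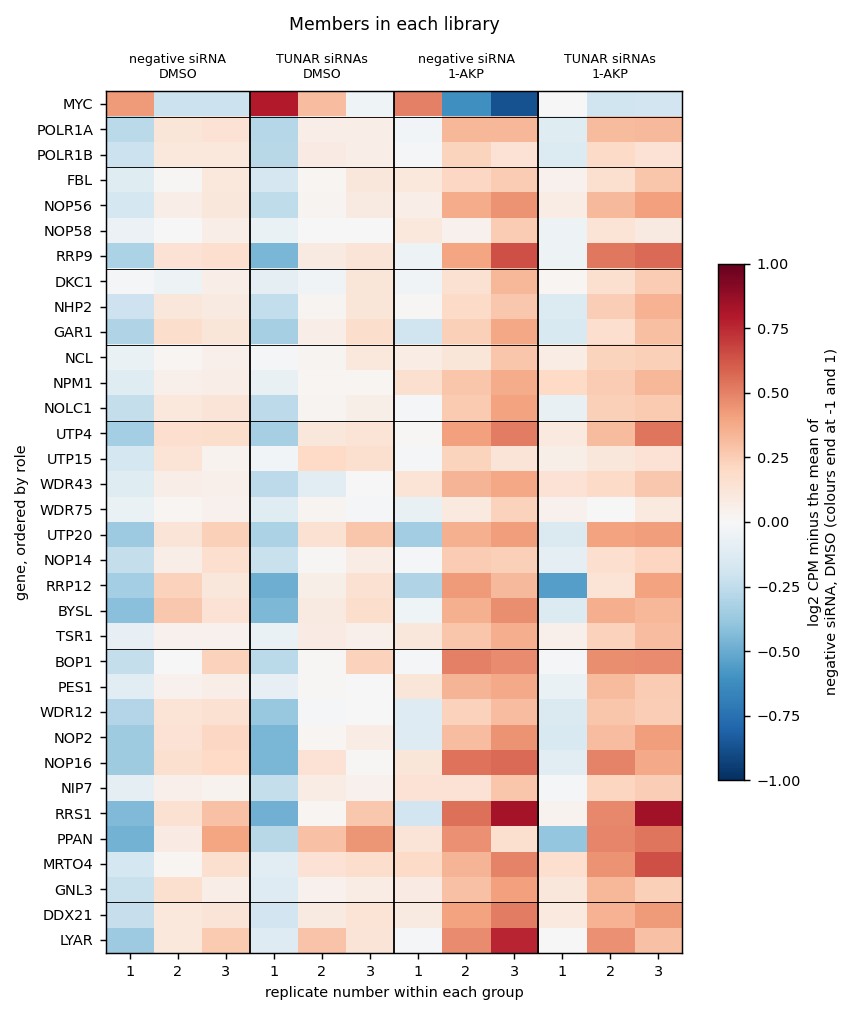
log2 CPM of each member (rows, ordered by role) in each library (columns, 3 per group), relative to its mean over the negative siRNA and DMSO libraries; colours end at -1 and 1. The first column of every group is bluer than the other 2 for 30 of the 34 members, and both 1-AKP groups are redder than the DMSO group of the same siRNA.

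The first comparison asks how inhibition of GSK3 by 1-AKP, against DMSO, changes these genes. With negative siRNA, 33 of 34 members had an estimate above 0, with a median log2 fold change of 0.21 against -0.00 over all genes tested. Only NPM1 rose by edgeR's quasi-likelihood test with Benjamini-Hochberg adjustment over all 15990 genes (0 fell), and 10 members had an unadjusted p under 0.05, as 20.9% of all genes did. Of all genes, 3.54% rose in this comparison after adjustment. With TUNAR siRNAs, 32 of 34 were above 0, the median was 0.20, and NPM1 and WDR43 rose (0 fell), where 3.72% of all genes rose. These 2 comparisons share no library. Averaged over both siRNAs, 33 of 34 were above 0 with a median of 0.21, and 9 rose and 0 fell, against 9.97% of all genes that rose. The 9 are NOP56, NCL, NPM1, WDR43, TSR1, PES1, MRTO4, GNL3 and DDX21, or 26.5% of the list. These fits hold no term for replicate number, so the lower levels in replicate 1 count as spread within groups. The counts with that number as a block are given in the last section.

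Without replicate 1 of all 4 groups, more members passed. There 21 members rose with negative siRNA, 20 with TUNAR siRNAs and 27 in the average, 0 fell in each, and 8.29%, 9.05% and 15.0% of all genes rose. The members not called in that average were NOP58, POLR1B, GAR1, WDR75, UTP15, PPAN and MYC, and the median was again 0.21. Replicate 1 was singled out from the members' own values, and leaving it out narrows their spread within groups. The calls without replicate 1, here and below, are therefore a description and no separate support for a rise. Without replicate 2 the count was 0 in all 3 comparisons. Without replicate 3, that is within passage 74 alone, the medians were 0.21, 0.19 and 0.21, with 0, 0 and 2 called (NPM1 and WDR43 in the average). Passage 75 holds 1 library per group and allows no test, and there the median differences were 0.26 with negative siRNA (32 of 34 above 0) and 0.22 with TUNAR siRNAs (32 of 34). Leaving out 1 library at a time, the 9 called in the average became 4 when replicate 1 was dropped from either DMSO group, replicate 3 from the 1-AKP cultures with negative siRNA, or replicate 2 or 3 from those with TUNAR siRNAs. It became 5 when replicate 2 was dropped from the DMSO cultures with TUNAR siRNAs or from the 1-AKP cultures with negative siRNA, and was between 6 and 13 without any of the other 5 libraries. NPM1, WDR43, TSR1 and MRTO4 kept their call without any 1 of the 12 libraries. The number called over all genes also changed with the libraries left out, with ranges given in the last section. A lower count of members is therefore not by itself a weaker response.

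**Figure D3:**
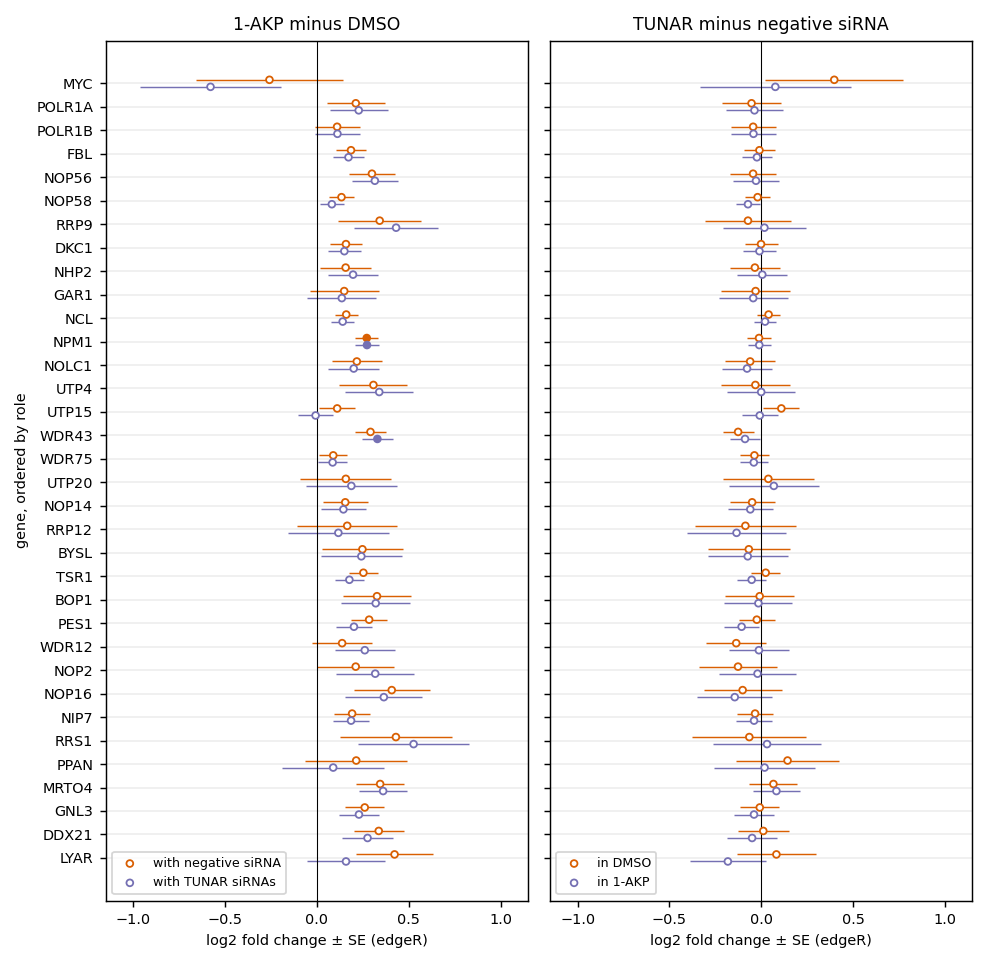
edgeR log2 fold change with its standard error for each member, for 1-AKP against DMSO (left) and for TUNAR against negative siRNA (right), with the 2 colours for the 2 siRNAs or the 2 treatments. Filled points passed the adjusted threshold of 0.05: NPM1 in both 1-AKP comparisons and WDR43 with TUNAR siRNAs. Nearly all points on the left lie above 0, and on the right 9 of 34 lie above 0 in DMSO and 8 of 34 in 1-AKP.

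MYC did not follow the other members. Its level with negative siRNA was 1.44, 0.871 and 0.876 CPM in DMSO and 1.52, 0.630 and 0.509 CPM in 1-AKP. With TUNAR siRNAs it was 1.89, 1.31 and 1.00 CPM in DMSO and 1.03, 0.887 and 0.888 CPM in 1-AKP. The groups overlapped for both siRNAs. The averaged log2 fold change was -0.42 ± 0.28 (SE, adjusted p = 0.339 by edgeR), the lowest estimate of the list, and it passed no threshold. With negative siRNA alone the estimate was -0.26 and turned to 0.02 without replicate 1 of the DMSO group and to 0.01 without replicate 3 of the 1-AKP group. It went the other way, to -0.89, without replicate 1 of the 1-AKP group and to -0.61 without replicate 1 of all groups. In the average, these 2 omissions gave -0.73 (adjusted p = 0.0564 by edgeR) and -0.50 (0.211). MYCN had 0.07 ± 0.11 (adjusted p = 0.729).

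The catalytic core of RNA polymerase I, POLR1A and POLR1B, had averaged estimates of 0.22 ± 0.11 (adjusted p = 0.208, edgeR) and 0.11 ± 0.09 (0.431), neither called. POLR1A ran from 56.8 to 75.7 CPM with negative siRNA and DMSO and from 67.3 to 86.2 CPM with negative siRNA and 1-AKP. Without replicate 1 POLR1A rose (0.22, adjusted p = 4.36e-05) and POLR1B did not pass (0.08, adjusted p = 0.162).

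Of the 4 box C/D snoRNP genes, 1 rose in the average and all 4 had an unadjusted p under 0.05, where 31.7% of all genes did. NOP56 was at 215, 256 and 263 CPM with negative siRNA and DMSO and at 256, 316 and 332 CPM with negative siRNA and 1-AKP. After TUNAR siRNAs it was at 204, 248 and 259.6 CPM in DMSO and at 256, 306 and 323 CPM in 1-AKP. The ranges touched or overlapped, because the lowest 1-AKP library, number 1, lay within the DMSO libraries numbered 2 and 3. The averaged log2 fold change of NOP56 was 0.31 ± 0.09 (adjusted p = 0.0342), a 1.24-fold difference. FBL lay just outside the threshold at 0.18 ± 0.06 (adjusted p = 0.0509). RRP9, which binds the U3 small nucleolar RNA, had a larger estimate with a wider error (0.39 ± 0.16, adjusted p = 0.124), and NOP58 a small one (0.11 ± 0.05, adjusted p = 0.135). Without replicate 1, FBL (adjusted p = 0.00261) and RRP9 (9.18e-05) rose and NOP58 did not pass (0.0544).

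None of the 3 box H/ACA snoRNP genes was called in the average with all libraries and no block. DKC1, the pseudouridine synthase, had 0.15 ± 0.06 (adjusted p = 0.115, edgeR), NHP2 0.18 ± 0.10 (0.244) and GAR1 0.14 ± 0.13 (0.519). Without replicate 1, DKC1 (adjusted p = 0.00823) and NHP2 (0.00296) rose and GAR1 did not pass (0.182).

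Among the nucleolar chaperones and scaffolds, NPM1 had the firmest change of the list. It was at 541, 609 and 613 CPM with negative siRNA and DMSO and at 654, 712 and 759 CPM with negative siRNA and 1-AKP. With TUNAR siRNAs it was at 556, 595 and 596 CPM in DMSO and at 673, 699 and 739 CPM in 1-AKP. Every 1-AKP library lay above every DMSO library of the same siRNA, including those numbered 1. Its log2 fold change was 0.27 ± 0.06 with negative siRNA (adjusted p = 0.0238), 0.27 ± 0.06 with TUNAR siRNAs (0.0225) and 0.27 ± 0.05 in the average (0.00119), or 1.21-fold.

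NCL was at 562, 596 and 611 CPM with negative siRNA and DMSO, below all of its 1-AKP values of 619.8, 641 and 715 CPM. With TUNAR siRNAs the groups overlapped, at 583, 601 and 634 CPM in DMSO and at 621, 686 and 697 CPM in 1-AKP. It rose in the average (0.15 ± 0.04, adjusted p = 0.0301). NOLC1, a scaffold that binds snoRNPs and RNA polymerase I, had 0.21 ± 0.10 (adjusted p = 0.170) and rose without replicate 1 (0.21, adjusted p = 3.06e-05).

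**Figure D4:**
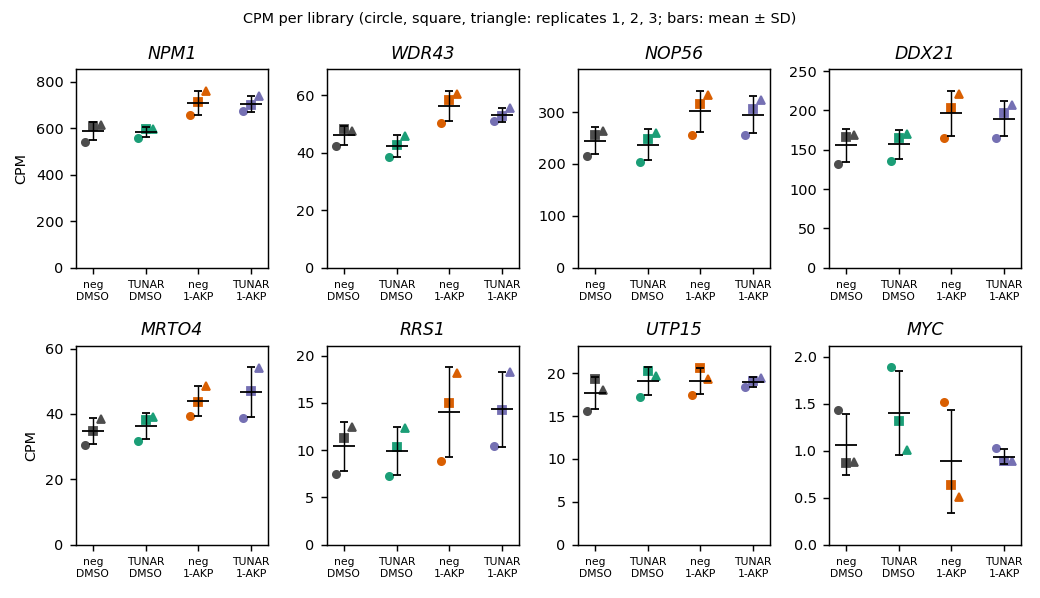
CPM of 8 members in each library by group, with circles, squares and triangles for replicates 1, 2 and 3 and bars for the mean ± SD of 3; each axis starts at 0. NPM1 and WDR43 separate by treatment for both siRNAs, UTP15 does not, and MYC is highest in replicate 1 of each group.

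Of the 9 small subunit factors, 2 rose in the average. WDR43, a component of the early complex that assembles on the nascent precursor, was at 42.3, 48.2 and 47.7 CPM with negative siRNA and DMSO and at 50.5, 58.4 and 60.4 CPM with negative siRNA and 1-AKP. After TUNAR siRNAs it was at 38.3, 42.6 and 45.8 CPM in DMSO and at 51.0, 52.6 and 55.6 CPM in 1-AKP. The treatments did not overlap with either siRNA. Its log2 fold change was 0.29 ± 0.08 with negative siRNA (adjusted p = 0.0560), 0.33 ± 0.08 with TUNAR siRNAs (0.0342) and 0.31 ± 0.06 in the average (0.00297).

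TSR1, a late factor of the small subunit precursor, was at 87.9, 96.0 and 96.1 CPM with negative siRNA and DMSO and at 101, 113 and 119.8 CPM with negative siRNA and 1-AKP, with no overlap. With TUNAR siRNAs it overlapped, at 89.2, 98.9 and 96.7 CPM against 96.5, 109 and 116 CPM. It rose in the average (0.21 ± 0.06, adjusted p = 0.0162). The other 7 were not called, and their averaged estimates ran from 0.05 for UTP15 and 0.09 for WDR75 to 0.24 for BYSL and 0.32 for UTP4. UTP4, UTP15, WDR43 and WDR75 work in the same early complex, and their estimates spanned 0.05 to 0.32. Without replicate 1, 7 of the 9 rose, all but UTP15 (0.02, adjusted p = 0.874) and WDR75 (0.09, 0.203).

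Of the 10 large subunit factors, 3 rose in the average and 7 had an unadjusted p under 0.05, against the same 31.7% of all genes. MRTO4, which holds the place of the stalk protein on the large subunit precursor, was at 30.5, 34.9 and 38.6 CPM with negative siRNA and DMSO and at 39.5, 43.8 and 48.7 CPM with negative siRNA and 1-AKP, with no overlap. After TUNAR siRNAs it was at 31.9, 38.1 and 39.0 CPM in DMSO and at 38.7, 47.1 and 54.0 CPM in 1-AKP, where the lowest 1-AKP library lay within the DMSO range. Its averaged log2 fold change was 0.35 ± 0.09 (adjusted p = 0.0180), or 1.28-fold, the largest among the 9 called.

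PES1, BOP1 and WDR12 form 1 complex needed for large subunit processing. PES1 was at 45.0, 50.0 and 51.0 CPM with negative siRNA and DMSO, below its 52.8, 61.6 and 63.3 CPM in 1-AKP, and with TUNAR siRNAs it was at 45.8, 48.8 and 48.8 against 46.5, 60.6 and 57.9 CPM. PES1 rose in the average (0.24 ± 0.07, adjusted p = 0.0259). BOP1 (0.32 ± 0.13, adjusted p = 0.119) and WDR12 (0.20 ± 0.12, 0.270) were not called by edgeR with all libraries. Without replicate 1 both rose in the average (BOP1 0.35, adjusted p = 4.81e-05).

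GNL3 (nucleostemin, a nucleolar GTPase) was at 64.2, 83.7 and 78.6 CPM with negative siRNA and DMSO and at 79.3, 91.9 and 100.0 CPM with negative siRNA and 1-AKP, which overlapped. With TUNAR siRNAs it was at 68.7, 77.4 and 79.2 CPM in DMSO, all below its 81.0, 94.3 and 88.6 CPM in 1-AKP. GNL3 rose in the average (0.24 ± 0.08, adjusted p = 0.0403). The largest estimate of the whole list was that of RRS1 (0.48 ± 0.21), a factor that helps build 5S RNA into the large subunit. Its libraries ran from 7.43 to 12.5 CPM with negative siRNA and DMSO and from 8.85 to 18.2 CPM with 1-AKP, so its adjusted p was 0.154. NOP16 (0.39 ± 0.15, adjusted p = 0.0922) and NOP2, an RNA methyltransferase (0.26 ± 0.15, 0.263), were likewise uncalled, and both rose without replicate 1 (NOP16 0.37, adjusted p = 0.000419; NOP2 0.26, 0.000173).

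Of the remaining 2 nucleolar genes, DDX21, an RNA helicase, was at 131, 166 and 169 CPM with negative siRNA and DMSO and at 164, 204 and 221 CPM with negative siRNA and 1-AKP. After TUNAR siRNAs it was at 135, 165 and 169.8 CPM in DMSO and at 165, 197 and 207 CPM in 1-AKP. For both siRNAs the 1-AKP library numbered 1 fell among the DMSO libraries and the others lay above all of them. Its average was 0.31 ± 0.10 (adjusted p = 0.0485), the weakest of the 9 calls. LYAR had 0.42 ± 0.21 with negative siRNA and 0.16 ± 0.21 with TUNAR siRNAs, with no call. Without replicate 1 LYAR rose with negative siRNA (0.45, adjusted p = 0.0158) and was not called with TUNAR siRNAs (0.17, 0.427). Counted without a model, 7 members lay higher in every 1-AKP library with negative siRNA (NCL, NPM1, WDR43, TSR1, PES1, NIP7 and MRTO4), or 20.6% of the list, where 13.4% of all genes did. With TUNAR siRNAs 3 did (NPM1, WDR43 and GNL3), or 8.82%, where 12.1% of all genes did, and 0 members lay lower in every library in either comparison.

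Other genes of the pathway, taken from lists of 113 factors, had a smaller median difference in the same averaged comparison. Members and lists were chosen with earlier results known, and the difference between them was not tested. The median log2 fold change of these other genes was 0.12, 104 of 113 were above 0, and 25 rose and 1 fell, where 9.97% of all genes rose. Without replicate 1, 57 rose and 1 fell, where 15.0% of all genes rose. Of 14 other RNA polymerase I genes, POLR1E rose (0.35 ± 0.06, adjusted p = 0.00110, edgeR) and POLR1D, a subunit shared with RNA polymerase III, rose (0.19 ± 0.03, 0.00147). UBTF, which binds the ribosomal DNA promoter, fell (-0.14 ± 0.04, 0.0427). Of 9 other snoRNP genes 2 rose, RUVBL1 (0.17) and NOP10 (0.20). Of 41 other small subunit factors 11 rose and 0 fell, among them RRP7A (0.23 ± 0.03, adjusted p = 0.000631), BUD23 (0.24) and ESF1 (0.25). Of 49 other large subunit factors 10 rose and 0 fell, among them RSL1D1 (0.26), DDX18 (0.17) and NSA2 (0.18).

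Genes known as MYC family targets outside the ribosome moved further. Of 19 tested, 12 rose and 0 fell with a median of 0.29 (16 rose and 1 fell without replicate 1), including LDHA, lactate dehydrogenase (0.54 ± 0.05, adjusted p = 1.23e-05, edgeR), TFRC, the transferrin receptor (0.29 ± 0.04, 0.000382), and ODC1, of polyamine synthesis (0.30 ± 0.05, 0.00155). Of the 12 transcription factors of the extended MYC network 1 rose, MLX (0.23 ± 0.05, 0.00456), and 5 fell (3 rose and 5 fell without replicate 1). Those 5 include MLXIPL, a glucose-responsive activator (-0.46 ± 0.06, 0.000261), and the repressors MXI1 (-0.92 ± 0.13, 0.000404) and MNT (-0.28 ± 0.05, 0.00115). MXD1 (-0.21) and MXD4 (-0.45) also fell, and MAX was at -0.06 (adjusted p = 0.602). Beta-cell markers moved in the same comparison: of 13, 4 fell and 2 rose (5 fell and 2 rose without replicate 1). Those that fell include NKX6-1 (-0.50 ± 0.05, 5.18e-05) and IAPP (-0.80 ± 0.15, 0.00450). G6PC2, of the glucose-6-phosphatase family, rose (2.32 ± 0.66, 0.0380), and INS was at 0.02 (adjusted p = 0.917).

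**Figure D5:**
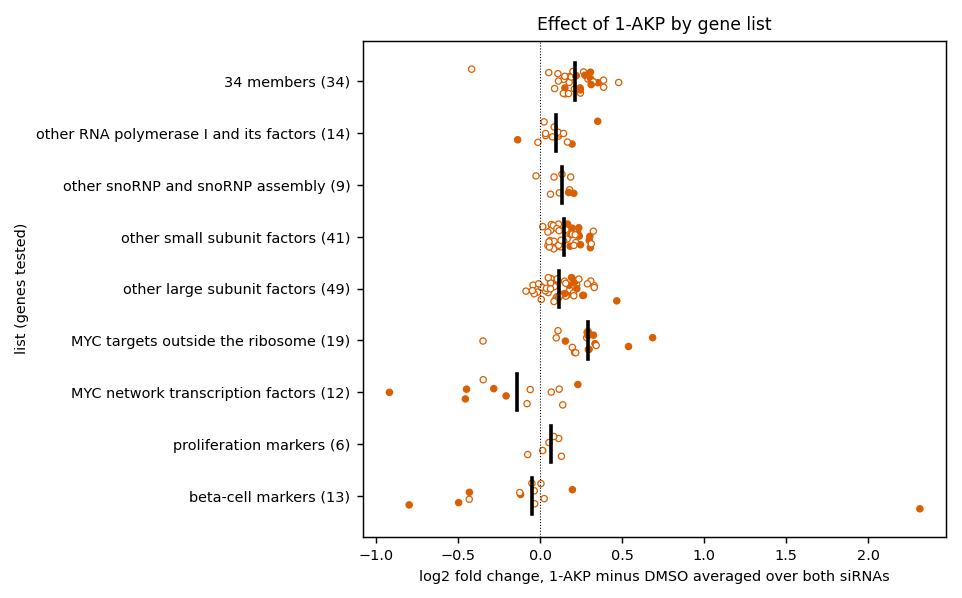
Averaged log2 fold change of 1-AKP against DMSO for every tested gene of each list, with the number of genes in brackets; filled points passed the adjusted threshold of 0.05 and the black bar is the list's median. The 34 members centre at 0.21, the MYC targets outside the ribosome at 0.29 and the proliferation markers at 0.07.

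The next comparison asks what the TUNAR siRNAs change. None of the 34 members was called in DMSO, in 1-AKP or in the average over both treatments by edgeR, and 0 had an unadjusted p under 0.05 in any of the 3. Few genes at all were called: 0.0125% in DMSO, 0% in 1-AKP and 0.175% in the average, at unadjusted p under 0.05 in 776, 743 and 1392 genes, and DESeq2 called 21, 15 and 156. Member medians were -0.03 in each, with 9, 8 and 6 of 34 above 0. Without replicate 1, 0 members were called in any of the 3, with medians of -0.03 in each, where 0.281%, 0.281% and 1.69% of all genes were called. TUNAR, as the target, fell in the average (-1.49 ± 0.18, adjusted p = 0.0101). For 1-AKP against DMSO, averaged over both siRNAs, TUNAR rose (0.74 ± 0.18, adjusted p = 0.0143 by edgeR). After TUNAR siRNAs its mean was 10.3 CPM in 1-AKP and 6.37 CPM in DMSO, so the level left by the knockdown differed between treatments.

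The replicate numbers pair the libraries in these siRNA comparisons, and with replicate number as a block 3.05%, 2.77% and 8.59% of all genes were called. In that fit 1 member passed: WDR43 fell in the average by a log2 fold change of -0.11 (adjusted p = 0.0484, against 0.701 without the block). Its TUNAR siRNA libraries in DMSO (38.3, 42.6 and 45.8 CPM) each lay below the control library of the same number (42.3, 48.2 and 47.7). In 1-AKP this held for replicates 2 and 3 (52.6 and 55.6 against 58.4 and 60.4 CPM) and not for replicate 1 (51.0 against 50.5). The block call of WDR43 ended without replicate 1 (adjusted p = 0.0558), without replicate 2 (0.433) and without replicate 3 (0.177), and without replicate 3 RRP12 fell instead (-0.22, adjusted p = 0.0444). With the block, the share of members called, 2.94%, was below the 8.59% of all genes.

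The last comparison is the difference of the 1-AKP effect between the siRNAs. No member was called, 0 of 34 had an unadjusted p under 0.05, and 0% of all genes were called by edgeR (170 at unadjusted p under 0.05, and 0 by DESeq2). The member estimates ran from -0.32 for MYC to 0.12 for WDR12, with a median of -0.01. For NPM1 the difference was 0.00 ± 0.09 and for WDR43 0.04 ± 0.12, while for RRS1 the standard error was 0.43, so differences of the size of the 1-AKP effect itself could not be resolved for the variable members.

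Many members share an E-box in their promoter. RefSeq promoter windows, 250 bases before to 50 after an annotated start in GRCh38.p14, were given for 28 of the 34 genes (none for MYC, NOP58, NOLC1, RRP12, BOP1 and RRS1), and a gene with several windows was counted once. The motif CACGTG, which is its own reverse complement, was present in 14 of 28 members, or 50.0%, and in 12.05% of the 12444 tested genes with a window. The median GC content was 65.0% in member windows and 64.3% in all windows. Other motifs, searched on both strands, were closer to the background. CACGCG was in 32.1% of members against 21.3%, CCGGAAG in 35.7% against 20.5%, CCAAT in 46.4% against 42.5%, GGGCGG in 71.4% against 73.3% and TATAAA in 3.57% against 8.84%. The members with CACGTG are DDX21, FBL, GAR1, GNL3, LYAR, MRTO4, NOP14, NOP2, PES1, RRP9, UTP20, UTP4, WDR43 and BYSL, and each holds it once. The motif's first base lay between position -64 (LYAR) and 36 (NOP2), where 1 is the first transcribed base.

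The following stretches show the motif, in capitals, in the 5 called members that have it and in the 2 members at the ends of the position range. They are read 5′ to 3′ on the gene's strand, with GRCh38.p14 coordinates, and the position is that of the motif's first base. A positive position lies at or after the annotated start and a negative one upstream of it.
MRTO4, chr1:19251807-19251836, plus strand, position 15: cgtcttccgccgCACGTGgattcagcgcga
WDR43, chr2:28894658-28894687, plus strand, position 4: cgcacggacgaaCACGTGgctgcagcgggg
GNL3, chr3:52686026-52686055, plus strand, position 7: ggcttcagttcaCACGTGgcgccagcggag
DDX21, chr10:68956604-68956633, plus strand, position -31: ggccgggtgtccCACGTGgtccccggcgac
PES1, chr22:30591880-30591909, minus strand, position 14: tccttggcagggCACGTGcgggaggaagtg
LYAR, chr4:4290068-4290097, minus strand, position -64: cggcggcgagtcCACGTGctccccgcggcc
NOP2, chr12:6568242-6568268, minus strand, position 36: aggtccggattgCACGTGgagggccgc

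Of the 14 members with CACGTG 5 rose in the averaged 1-AKP comparison, with a median of 0.25, and of the 14 with a window and no such motif 4 rose, with a median of 0.18. The groups are small and their difference was not tested. Over all tested genes with a window, 15.7% of the 1499 with CACGTG rose (median 0.04) and 10.1% of the 10945 without it (median -0.00). NPM1, the firmest riser, and NCL, NOP56 and TSR1 have no CACGTG in this window, and NPM1 and TSR1 hold CACGCG. A match is a string of letters in a window: binding was not measured.

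Several members also carry small nucleolar RNA genes inside their own gene bodies, by position in the RefSeq annotation on either strand. This held for 9 of 34 members (26.5%) and for 3.33% of tested genes. NOP56 and GNL3 hold 5 each, NOP58 holds 4, NCL and WDR43 hold 3, DKC1, TSR1 and PPAN hold 2 and UTP20 holds 1. Of the 9 called members, 5 carry such genes (NOP56, NCL, WDR43, TSR1 and GNL3). The snoRNAs were barely seen in polyadenylated RNA, with those inside NOP56 at most 102 expected counts and those of GNL3 at most 5. The strand of reads is not known for these libraries, and members that overlap another gene are uncertain to that extent: NHP2 with RMND5B, NOP14 with NOP14-AS1, BYSL with MED20, TSR1 with SRR, BOP1 with SCX, NOP16 with ARL10, GNL3 with GLT8D1, and PPAN with P2RY11 and their readthrough PPAN-P2RY11. NPM1 has 50 named pseudogenes in RefSeq, of which 0 are listed in these files, so reads from them, if any, could have been counted to NPM1.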

How the data were processed

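RNA-seq of 12 EndoC-βH1 cultures was analysed from 1 file per library. Per the file headers, each deposited file holds an expected count for every listed gene, which is a raw estimate of its reads. FPKM, scaled per gene length and library total by the authors, stands beside it per the file headers. RSEM, BWA and Bowtie, with hg19 and GRCh37 as builds, are given in the submitters' processing notes; versions and roles are not given in the sources used here. Genes absent from a library's file were set to 0.

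Genes were grouped by the sample titles. Expected counts were rounded (12 of the 34 members had counts more than 1e-09 from a whole number), kept by filterByExpr (minimum count 10, minimum total 15; 15990 genes with 99.9% of counts), scaled by TMM and fitted with 4 group means in edgeR 4.0.16 under R 4.3.3 (glmQLFit, robust; 8 residual degrees of freedom). Contrasts were tested by the quasi-likelihood test with Benjamini-Hochberg adjustment over all genes at 0.05. CPM was computed with TMM factors from 0.990 to 1.014, except for the levels and sums of cell-type and proliferation markers, which are CPM by library total alone. The lowest expected count in any library was 8 for MYC and 112 among the other members. Alternatives were DESeq2 1.42.0, limma 3.58.1 on log2 FPKM, other scalings and filters, passage or replicate number as a term, and leaving out libraries. The script was tested on simulated data. Libraries of a group differed by 2.37 to 11.9 chi-square per degree of freedom, so none was a copy of another. Over all genes with enough counts, replicates 2 and 3 differed by 2.37 to 2.84. Replicate 1 differed from either of them by 7.49 to 11.9.

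Same-numbered libraries were checked for pairing by the correlation over genes of their deviations from group means. It was 0.376, 0.178 and 0.217 for the siRNA comparison in DMSO and 0.416, 0.162 and 0.286 in 1-AKP, all over 0.1, so the numbers pair the libraries there by the data; the labels say only that numbers 1 and 2 are passage 74 and number 3 passage 75.

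The members and all lists were chosen with earlier results of these data known. Named were TUNAR, all members, and up to 3 called genes of lowest p per other list and comparison, besides the markers of highest level. The remaining called genes of short lists (MXD1, MXD4, MLX, G6PC2), MAX, MYCN and MYCL were added after their values were seen. So were the markers at or near 0 and the other markers below the highest of their list. Of the MYC target list 19 of 20 were tested. Promoter and gene annotation came from RefSeq tables of GRCh38.p14, another build than that of the files, and were joined by gene identifier. The result of 1 beta-cell marker is not reported here.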

Additional observations from a re-analysis of the deposited data

How the results depend on the processing

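Member results that passed the threshold in at least 1 fit of a comparison, and MYC, were followed over 2540 recomputed values, and none that was called changed sign: 2057 kept their side of the threshold, 396 passed it where they had not, and 87 no longer passed. The cause of these shifts was not tested. The median log2 fold change of the members stayed between 0.11 and 0.33 for 1-AKP under every alternative run, and no member fell. In the order negative siRNA, TUNAR siRNAs and average, replicate number as a block gave 26, 25 and 29 risen members. These are 76.5%, 73.5% and 85.3% of the list (24, 24 and 28 members with library size only). Genes called in either direction were then 4285, 4335 and 6343 (4266, 4287 and 6299 with library size only). Without the block 1, 2 and 9 members rose. There 1168, 1201 and 3074 genes were called in either direction, of which 566, 595 and 1595 rose. The rule used asked for a correlation over 0.1 for every number. In the 1-AKP comparisons the numbers were not taken as pairs, because replicate 2 fell below it. Same-numbered correlations were 0.427, 0.087 and 0.223 with negative siRNA and 0.407, 0.063 and 0.159 with TUNAR siRNAs. Those of replicate 1 were close to its values in the siRNA comparisons (0.376 and 0.416). In the first comparison 5 of 6 libraries correlated best with their own number, and in the second 2 of 6. Risen members with negative siRNA were 3 with DESeq2, 5 with passage as a term and 0 with only the groups compared (777 genes called); with TUNAR siRNAs the last gave 1 (447 genes). Leaving out libraries gave 0 to 21, 0 to 20 and 0 to 27 risen members and 29 to 2559, 24 to 2769 and 543 to 4626 genes (with the block, 20 to 22, 18 to 24 and 27 to 28 members; without replicate 1, 2 or 3 in turn, 3824, 2901 and 2706 genes, 3978, 2966 and 2695, and 5736, 4969 and 4735). In the TUNAR siRNA comparisons in DMSO, in 1-AKP and in the average, genes called were 21, 15 and 156 with DESeq2, 488, 443 and 1373 with the block (477, 455 and 1372 with library size only), and 0 to 45, 0 to 45 and 0 to 270 leaving out libraries (with the block and without replicate 1, 2 or 3 in turn, 327, 122 and 243, then 306, 130 and 223, then 920, 716 and 786). With limma on log2 FPKM, at either pseudocount (1 or 0.1), 1 gene was called in DMSO and 17 in the average. In edgeR, 52 were called in the average and 1 in 1-AKP without the filter, 108 in the average with passage as a term, and 0 in DMSO with only the groups compared, against 2, 0 and 28 in DMSO, 1-AKP and the average as reported. Fallen members in the average were 1 with the block, 2 with the block and library size only (WDR43 and NOLC1), and 0 to 1 with the block leaving out a replicate number. The difference between siRNAs stayed at 0 called genes, besides 4 to 5 with the block leaving out a replicate number. The range over alternatives of the averaged adjusted p was 4.49e-15 to 0.0697 for NPM1 and 3.07e-09 to 0.107 for WDR43. The lowest expected count was 8 for MYC and 112 among the other members, and how far depth limits their calls was not tested.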
